A study of Drosophila melanogaster with 9 samples.

Results

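Heads of flies kept alone for 7 days were compared with heads of flies kept in a group for 7 days, with 3 libraries of each, which are 6 of the 9 libraries of the series. The members were taken from the labels: every library of the 7-day isolation and every library of the 7-day group. All flies (Drosophila melanogaster) carried 1 genotype, given as wild type Canton-S w1118 (iso1CJ), and the labels name no transgene or drug in any group. The third group of the series, flies kept alone for 1 day (3 libraries), served here for the estimate of the spread and for values set beside those of the 7-day isolation. Each library was made from the pooled whole heads of 200 flies collected shortly after lights on, so it holds no information on single flies, and the labels give neither their sex nor their age. Nothing in the labels says that the replicates came from separate cultures, so p-values measure the spread between these pools, which may be technical.

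Fruit flies gather and interact with one another, and being kept without others is known to alter their sleep, feeding and aggression. A fly's head holds brain and eyes, and also a head fat body, the counterpart of liver and adipose tissue, which stores lipid and sugar, secretes proteins into the blood and carries much of the insect's detoxification and amino acid metabolism. Peptide hormones released by neurons and endocrine cells, with insulin-like peptides, adipokinetic hormone, drosulfakinin and limostatin among them, link feeding state to that tissue and to behaviour.

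The 6 libraries held 47381611 to 53514747 counts each, so that a count of 0 would allow up to 0.0561 to 0.0633 CPM (counts scaled to library size with TMM factors; 3 counts of a library's total, which covers counting error only). Defining transcripts of head tissue were abundant in all of them: photoreceptor markers summed to 83500 to 85200 CPM in the group and 72000 to 81400 after 7 days alone, and neuron markers to 10000 to 10400 and 8890 to 9910. Both ranges were lower after isolation with no overlap, whereas glia (4410 to 4790 and 4120 to 4720), muscle (5700 to 5790 and 5230 to 5990), hemocyte (2000 to 2500 and 2150 to 2310) and fat body markers (17400 to 19300 and 17700 to 21500) overlapped. In bulk samples fewer cells of a type and less RNA per cell cannot be told apart. Not all libraries were of heads alone. A sum of 35 gut and 48 male tract markers reached 1135 CPM in replicate 2 of the group and 1349.8 and 2541 CPM in replicates 1 and 3 of 7 days alone. It was 4.62 to 6.64 CPM in the other 3 libraries. The gut protease gene gammaTry and the lysozyme gene LysD were at 0 in all 6. The kinds of library, those without and those with body tissue RNA, were therefore compared within themselves as well. Without it were replicate 2 of isolation and replicates 1 and 3 of the group, and with it replicates 1 and 3 of isolation and replicate 2 of the group. Markers of female tissues summed to 72.7 to 101 CPM in the group and 61.5 to 70.5 CPM alone, with the chorion genes Cp15 and Cp16 at 0. The dosage compensation RNA roX1, a male marker, was at 1852, 1768 and 1796 CPM in the group and 1521, 1705 and 1558 CPM alone, lower after isolation with no overlap. Sex-specific head markers summed to 2230 to 2310 CPM in the group and 1910 to 2130 CPM alone, with no overlap. The level of roX1 was large beside these sums, so they are not read as a separate result. The 17 markers did not move together. After isolation 10 had a higher and 7 a lower estimate, with a median log2 change of 1.32, and 13 differed with body tissue. Libraries of 2 lay wholly lower and of 0 wholly higher, and none of the 17 was called. The part of sex composition in the results, those for fit and Cyp4d21 included, was not tested.

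After 7 days alone the genes that rose included the hormone gene Lst, the satiety gene fit, the P450 genes Cyp6a8 and Cyp6w1 and the one-carbon enzyme genes Sardh, Tdh and Ahcy, and those that fell included the hormone gene Dsk, the lipid droplet gene Jabba and the stress-induced Turandot genes TotC and TotX. In an edgeR quasi-likelihood fit with the group as its only term, 39 of 12963 genes were called, meaning an adjusted p (Benjamini-Hochberg) below 0.05, which is 0.301% of the genes tested. Of these 32 were higher (0.247%) and 7 lower (0.054%) after 7 days alone. With a further term for the presence of body tissue in a library 142 genes were called (1.1%), 121 higher (0.933%) and 21 lower (0.162%). In a single run of simulated counts the fit with the term made more false calls than its threshold allows and the fit without it did not. Genes called with the term only are therefore less firm. That run took its spread from the fit with the term, and its planted changes were larger than most called here. It cannot show that the fit without the term keeps its threshold on these data. Among the 142 were 38 of the 39, and the exception was the proteasome subunit gene Rpn2, which went from an adjusted p of 0.0407 to 0.115. All 39 were protein coding. Their median change was 1.68-fold, 9 changed by at least 1 log2 unit and 7 by less than 0.5, and the 104 genes called with the term alone (90 higher, 14 lower) had a median change of 1.38-fold. The median log2 change of all genes was 0.014 without and 0.021 with the term. Called genes were well expressed, with a median of 98.5 CPM for the 39 and 97.8 for the 104 against 15.6 for all genes tested.

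Gut and male tract RNA was examined gene by gene. In the fit with the term, 2977 genes had a body tissue difference of 0.5 log2 units or more and 9986 did not. None of the 39 was among the 2977, and their body tissue differences lay between -0.21 and 0.12. Body tissue RNA was in some libraries of both groups, so a large difference widens the spread within a group. Such a gene could hardly be called without the term, so this absence follows largely from the call and is no separate check. Of the 142 only CG45080 was, at 0, 0.431 and 0 CPM in the group and 4.84, 0 and 4.78 CPM alone, so that it was seen in libraries with body tissue only. In each of the 39 genes the 3 libraries of isolation lay wholly above or wholly below the 3 of the group, as they did in 15.5% of all genes (7.0% higher, 8.45% lower). The same held for 103 of the 104. The sign within each kind of library follows from this separation and is no further check, so only the sizes of the differences within each kind are described. In 31 of the 39 and 98 of the 104 the estimated effect of body tissue was negative, which means a lower share of the total in libraries that held it. The share of negative effects over all genes was not computed, so these counts are not read as particular to the called genes. Among the genes that rose, the highest isolation library was replicate 2, which had no body tissue, for 23 of 32 and 83 of 90, against 39.6% of all genes. Replicate 2 also had the highest sum of fat body markers of the 6, at 21472 CPM. The part of library composition in these changes was not tested beyond the term.

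**Figure D1:**
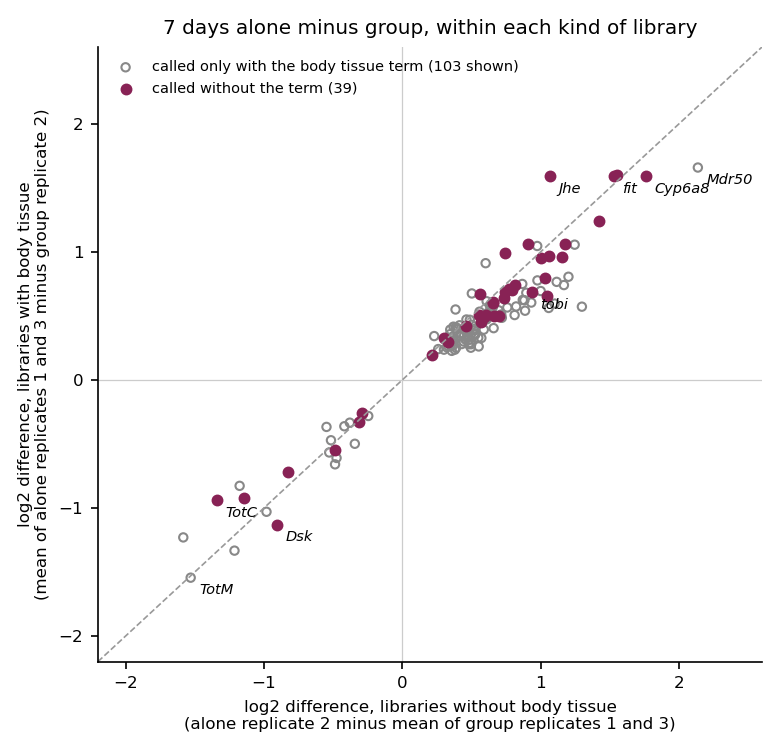
The log2 difference of 7 days alone against group within libraries without body tissue (x axis) is plotted against that within libraries with it (y axis) for the 39 genes called without the term (filled) and 103 of the 104 called only with it (open, CG45080 left out); the dashed line marks equal values. The shared sign of all points follows from libraries that do not overlap, and the plot shows the sizes, with Dsk at -0.91 and -1.13 and Cyp6a8 at 1.76 and 1.59.

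How firmly a gene was called depended on single libraries. Without the term, leaving out 1 of the 6 libraries left 14 genes (without group replicate 1), 3 (group replicate 2), 7 (group replicate 3), 31 (alone replicate 1), 3 (alone replicate 2) and 4 (alone replicate 3), and 2 genes, atk and tobi, were called in each of these fits, while 15 of the 39 were called in none. With the term the same steps left 56, 81, 68, 204, 34 and 93 genes. Of the 39, 21 were called in all 6 of the fits with the term and 29 in at least 5, and of the 104, 12 and 21. The 5 of the 39 called in 0 of these 6 fits were Mpc1, mthl10, CG10512, CG10175 and Rpn2.

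A pair of peptide hormone genes changed in opposite directions. Limostatin (Lst; FBgn0034140, chromosome 2R, 16574579 to 16576586) encodes a hormone of endocrine cells that holds back insulin release. It was at 75.8, 77.7 and 73.9 CPM in group replicates 1, 2 and 3 and at 134, 128 and 119.7 CPM in the replicates of 7 days alone. All 3 isolation libraries lay above all 3 of the group, a 1.68-fold rise (log2 0.75, SE 0.0595, adjusted p = 0.00699 by edgeR; 0.00146 with the term). Drosulfakinin (Dsk; FBgn0000500, chromosome 3R, 4189692 to 4190260) encodes sulfated peptides related to cholecystokinin that act in satiety, aggression and courtship. It was at 80.0, 85.9 and 79.1 CPM in the group and 39.9, 42.4 and 38.7 CPM alone. Every isolation library lay far below every group library, at 0.494 times the group's level (log2 -1.02, SE 0.129, adjusted p = 0.0349; 0.00442 with the term). The log2 difference of Lst was 0.77 among libraries without and 0.71 among those with body tissue, and that of Dsk -0.91 and -1.13. With 1 library left out and no term, Lst was called in 2 of 6 fits (highest adjusted p = 0.133) and Dsk in none (highest 0.261), and with the term in 6 and 5 of 6 (highest 0.0295 and 0.054).

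Of 44 neuropeptide and peptide hormone genes tested, Lst rose and Dsk fell in both fits, and the median log2 change was -0.06 against 0.014 for all genes. Libraries of 4 members lay wholly higher and of 7 wholly lower, against 7.0% and 8.45% of all genes tested. The insulin-like peptide gene Ilp2 was at 126 ± 4.52 CPM in the group and 132 ± 9.05 alone (log2 0.07, adjusted p = 0.902), Ilp5 at 10.8 ± 0.93 and 13 ± 1.01 (log2 0.28, adjusted p = 0.88), and ImpL2, whose product binds insulin-like peptides, at 104 ± 3.41 and 131 ± 3.25 (log2 0.34, adjusted p = 0.35; mean ± SD, n = 3). NPF, a peptide gene linked to feeding and aggression, was at 46.3 ± 2.34 and 55.1 ± 6.01 CPM (log2 0.25, adjusted p = 0.88) and the clock peptide gene Pdf at 119.6 ± 6.41 and 107 ± 11.9 (log2 -0.16, adjusted p = 0.88). The receptors of drosulfakinin, CCKLR-17D1 and CCKLR-17D3, had log2 differences of 0.06 and -0.02, neither called. Among 50 receptor genes for peptides and monoamines, mthl10 fell in both fits and AkhR with the term. The methuselah-like receptor gene mthl10 was at 54.5, 53.5 and 53.7 CPM in the group and 44.2, 44.1 and 45.3 CPM alone, narrow ranges with a small gap (log2 -0.28, SE 0.0375, adjusted p = 0.0435). With 1 library left out, mthl10 was called in 0 of 6 fits, both without and with the term. Of 50 such receptors 44 had a negative estimate, with a median of -0.06, against 5971 of 12963 over all genes tested. For 9 of the 50 the isolation libraries lay wholly lower and for 2 wholly higher, against 8.45% and 7.0% of all genes.

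Among 28 genes linked to aggression or social experience in flies only Dsk was called. Cyp6a20, a P450 gene that group housing raises in earlier work on aggression, was at 186, 178 and 177 CPM in the group and 169, 176 and 161 CPM alone. Its ranges did not overlap, yet the difference was small (log2 -0.10, SE 0.0679, adjusted p = 0.88). Obp69a, an odorant-binding protein gene tied to social experience, was at 12.1, 11.6 and 10.8 and 9.03, 10.8 and 8.51 CPM (log2 -0.28, adjusted p = 0.88). The serotonin synthesis gene Trhn had a log2 difference of -0.05 and the dopamine synthesis gene ple of 0.01, and none of 16 genes of dopamine, serotonin and octopamine synthesis was called.

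**Figure D2:**
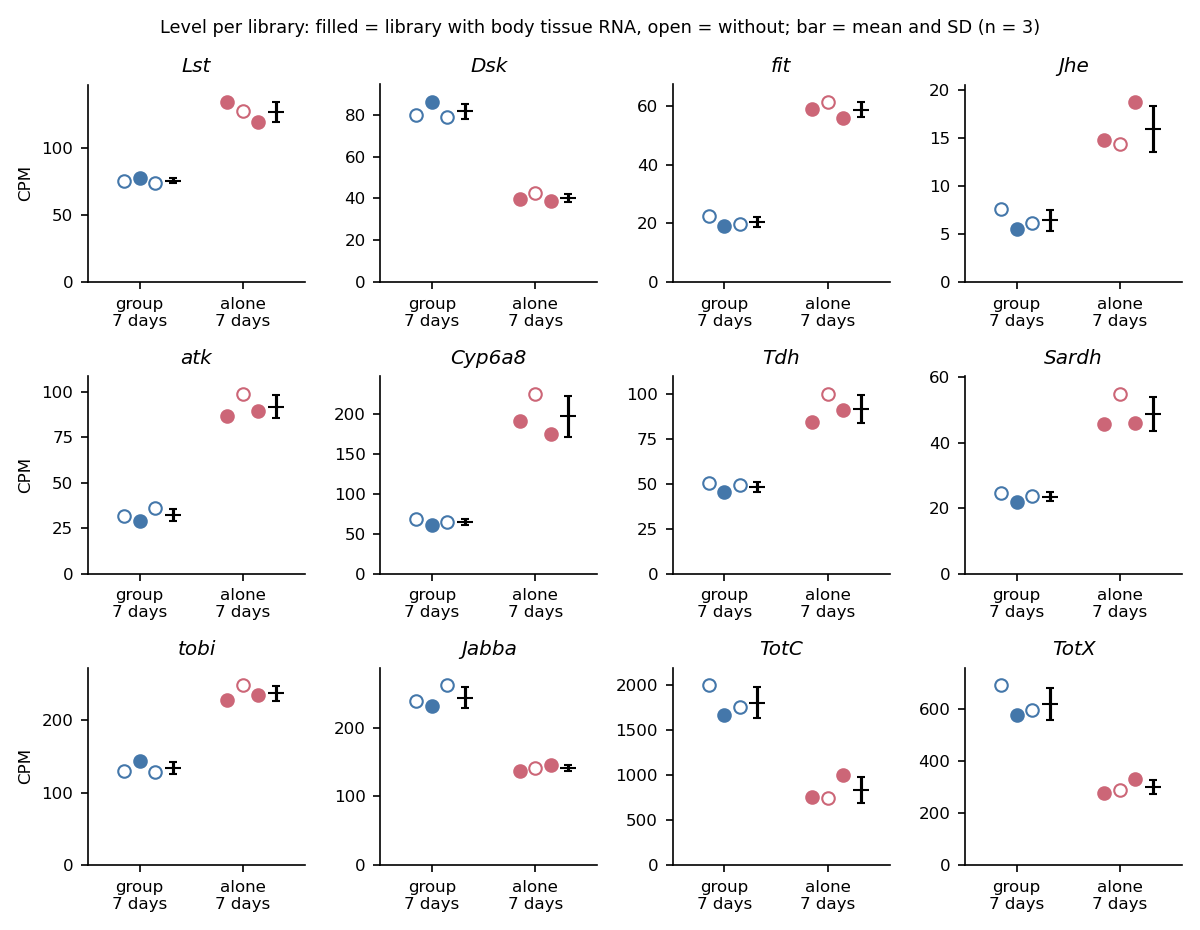
Levels of 12 called genes in CPM (y axis) are shown for each of the 3 group libraries and the 3 libraries of 7 days alone (x axis), filled where body tissue RNA was present and open where it was not, with mean and SD beside them. In each panel the 2 groups are apart. Within a group, filled and open points differ in some panels. For Sardh the open isolation library was at 54.9 CPM and the filled ones at 45.6 and 45.9 CPM. Dsk, Jabba, TotC and TotX were lower alone and the other 8 genes higher.

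Other hormone-related genes of the head rose. The gene fit (FBgn0038914, chromosome 3R, 21883924 to 21884454) encodes a secreted satiety protein of the head fat body. It was at 22.5, 19 and 19.9 CPM in the group and 58.9, 61.2 and 56 CPM alone, a 2.87-fold rise with tight replicates on both sides (log2 1.52, SE 0.168, adjusted p = 0.017; 0.00342 with the term). Its exons overlap CG31465 on the other strand and an antisense RNA on its own, CG31465 was at 0.532 ± 0.838 CPM in the group and 2.00 ± 1.66 alone, and with 1 library left out and no term fit was called in 0 of 6 fits (highest adjusted p = 0.153; with the term 5 of 6, highest 0.0697). The juvenile hormone esterase gene Jhe (FBgn0010052, chromosome 2R, 16119793 to 16122773), whose enzyme inactivates juvenile hormone, went from 7.63, 5.47 and 6.09 CPM to 14.8, 14.3 and 18.7 CPM. Its lowest isolation library stood at nearly 2 times the highest group library (log2 1.31, SE 0.158, adjusted p = 0.0267). Jheh1, an epoxide hydrolase of the same breakdown, rose with the term (log2 0.42, adjusted p = 0.00444). The receptor genes Met and gce, and jhamt, which makes the hormone, had log2 differences of -0.01, -0.15 and 0.05 with none called, and of 28 juvenile hormone and ecdysone genes 1 was called without and 2 with the term, both higher. The takeout gene to, another secreted head protein, was at 97.2, 107 and 99 CPM in the group and 128, 142 and 119 alone (log2 0.36, adjusted p = 0.43).

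Cytochrome P450 enzymes oxidise foreign compounds, hormones and fatty acids. Of 75 P450 genes tested, 4 were called higher and 0 lower, or 6 and 0 with the term, and the median log2 change was 0.09 (0.14 with the term). Libraries of 19 lay wholly higher and of 5 wholly lower, against 7.0% and 8.45% of all genes tested. The most changed of the called P450 genes was Cyp6a8 (FBgn0013772, chromosome 2R, 14887171 to 14889010), of a family linked to the metabolism of plant toxins and insecticides. It stood at 68.2, 60.7 and 64.2 CPM in the group and 190.5, 225 and 175 CPM alone. The isolation libraries were about 3 times as high as the group's and furthest up in replicate 2 (log2 1.61, SE 0.104, adjusted p = 0.00492). Cyp6w1 rose from 152, 148 and 167 CPM to 284, 355 and 292 CPM, again with the top value in replicate 2 (log2 0.99, SE 0.0931, adjusted p = 0.00986). Cyp6a2 went from 42.2, 41.3 and 43.1 to 69, 67.1 and 57.3 CPM (log2 0.61, adjusted p = 0.0435). Cyp4d21, a P450 gene of the male head fat body required in courtship and also known as sxe1, went from 368, 347 and 355 to 497, 531 and 489 CPM (log2 0.50, adjusted p = 0.0137). With the term Cyp309a1 (log2 0.81, adjusted p = 0.00778) and Cyp4e2 (log2 0.29, adjusted p = 0.0288) rose as well.

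The EcKL genes, a large family of kinase-like genes named for an ecdysteroid kinase of the silkworm, held some of the larger changes. Of 42 tested, 4 rose and 0 fell in both fits, with a median log2 change of 0.13. CG9498 was at 63.5, 60.5 and 64.9 CPM in the group and 138, 172 and 149 CPM alone, well apart (log2 1.28, SE 0.12, adjusted p = 0.00986). CG6908 was at 94, 83.5 and 89.4 and 176, 191 and 151 CPM (log2 0.96, adjusted p = 0.00986). CG10553 (log2 0.42, adjusted p = 0.00986) and CG10560 (log2 0.52, adjusted p = 0.0403) lie 439 bases apart on chromosome 3R and belong to the same family, so reads could be shared where their sequences match. A body tissue difference of 0.5 log2 units or more was found in 12 of the 42 members.

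Peroxiredoxins of the type with 1 active cysteine were the antioxidant genes called higher. Prx6c (FBgn0033518, chromosome 2R, 10418718 to 10419761) was at 42.1, 37.4 and 44.5 CPM in the group and 78.4, 81.5 and 77.5 CPM alone, with little spread (log2 0.94, SE 0.0641, adjusted p = 0.00492). Its neighbours Prx6b (log2 0.57, adjusted p = 0.0239) and CG12896 (log2 0.60, adjusted p = 0.0146), 4675 and a further 1409 bases away, were called with the term. These 3 genes are near copies of each other, so the counting could split reads among them. In fits with the term and 1 library left out, Prx6b was called in 1 of 6. The list of 21 antioxidant genes tested does not hold CG12896. Its 19 genes besides Prx6c and Prx6b were not called, with Cat (catalase) at 0.12 and Sod1 at 0.09 (log2). Of the 21, 19 had a positive estimate. For 9 the isolation libraries lay wholly higher and for 0 wholly lower, against 7.0% and 8.45% of all genes tested. None of 35 glutathione S-transferase genes was called (median 0.00). Their libraries lay wholly higher for 7 and wholly lower for 2, against 7.0% and 8.45% of all genes tested. Mdr50, a P-glycoprotein type ABC transporter gene, was at 3.22, 5.27 and 3.68 CPM in the group and 14.8, 15.3 and 18.9 CPM alone, the largest estimate after CG45080 among the genes called with the term. Its log2 change was 2.01 (adjusted p = 0.0527) without and 1.89 (SE 0.199, adjusted p = 0.00303) with the term.

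Among enzymes that make and use glycine and one-carbon units on folate, 3 of the 23 genes tested rose and 0 fell without the term, and 11 rose and 0 fell with it. The other 12 were called in neither fit, and the median log2 change was 0.36 (0.38 with the term) against 0.014 for all genes. Libraries of 17 lay wholly higher and of 3 wholly lower, against 7.0% and 8.45% of all genes tested. None of the 23 differed with body tissue by 0.5 log2 units. Like the other lists, this one was chosen with earlier results of these data known. Its counts are therefore a description and no separate support. Sardh, the sarcosine dehydrogenase gene, was at 24.7, 21.9 and 23.7 CPM in the group and 45.6, 54.9 and 45.9 CPM alone (log2 1.06, SE 0.1, adjusted p = 0.00986). The gene for threonine dehydrogenase, Tdh, which starts the breakdown of threonine to glycine, was at 50.8, 45.4 and 49.3 and 84.6, 100.2 and 91.2 CPM (log2 0.92, SE 0.0708, adjusted p = 0.00669). Ahcy, whose enzyme splits the S-adenosylhomocysteine left by methyl transfer, went from 65.9, 66.8 and 69.5 to 91.2, 107 and 97.9 CPM (log2 0.55, adjusted p = 0.0414). In all 3 the groups were apart and replicate 2 was the highest isolation library.

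The other 8 were called with the term only. Gnmt, which moves a methyl group to glycine and so yields sarcosine, was at 219, 205 and 225 CPM in the group and 335, 437 and 369 CPM alone (log2 0.90, SE 0.095, adjusted p = 0.00303; 0.132 without the term). Shmt, which converts serine to glycine and loads folate, was at 372, 348 and 399 and 497, 652 and 534 CPM (log2 0.66, adjusted p = 0.00202; 0.143 without). CG6415, the aminomethyltransferase of glycine cleavage, was at 63.4, 56.8 and 67.4 and 83, 103 and 85.8 CPM (log2 0.62, adjusted p = 0.00235; 0.275 without). In these 3 the group libraries overlapped none of the isolation libraries, and replicate 2 was the highest isolation library. The sum of fat body markers, at 18168, 17386 and 19315 CPM in the group and 17708, 21472 and 19111 CPM alone, had the same order of libraries within each group as these 3 genes, with replicate 2 the highest alone. Its part in these changes was not tested. The remaining called members were chosen for mention after their values were seen: the glycine decarboxylase gene CG3999 (log2 0.92, SE 0.135), the folate enzyme genes Nmdmc (0.95, SE 0.156), pug (0.53, SE 0.0723) and CG7560 (0.38, SE 0.0673), and Cth of cysteine synthesis (0.38, SE 0.0652). Nmdmc varied most, at 85.5, 162 and 111 CPM in the isolation libraries. Sam-S, which makes S-adenosylmethionine, was not called (407 ± 9.86 and 538 ± 48.6 CPM, log2 0.41, adjusted p = 0.0605 with the term). The 3 members with wholly lower libraries were CG8665 (log2 -0.37, adjusted p = 0.0695), P5cr-2 (-0.23, adjusted p = 0.093) and AhcyL1 (-0.09, adjusted p = 0.66).

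Purine synthesis, whose rings take up glycine and folate-borne carbon, was added as a list after the called genes had been seen, so its count is a description of them. Of 11 genes of the route, 0 were called without and 5 higher with the term, and the median log2 change was 0.30 (0.36 with the term). Libraries of 8 lay wholly higher and of 0 wholly lower, against 7.0% and 8.45% of all genes tested. Pfas was at 199, 184 and 216 CPM in the group and 276, 415 and 319.7 CPM alone (log2 0.82, SE 0.107, adjusted p = 0.00875). Adsl was at 69.2, 64.1 and 70.6 and 90.3, 115 and 92.4 CPM (log2 0.61, SE 0.0558, adjusted p = 0.00163). CG11089 (log2 0.67, adjusted p = 0.0138), Gart (0.72, adjusted p = 0.0153) and Paics (0.44, adjusted p = 0.0147) completed the called steps. The first enzyme of the route is encoded by Prat and Prat2, at -0.06 and 0.36, and the branch to GMP and AMP by ras (-0.02), bur (0.07) and Adss (0.09), none of them called. The xanthine dehydrogenase gene ry, of purine breakdown, rose with the term from 96.6, 90.7 and 103 to 122, 138 and 130.1 CPM (log2 0.44, adjusted p = 0.0163), and was picked after its values were seen. Gnmt, Shmt, Pfas, Gart, CG11089 and Nmdmc overlap exons of other genes on the opposite strand.

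**Figure D3:**
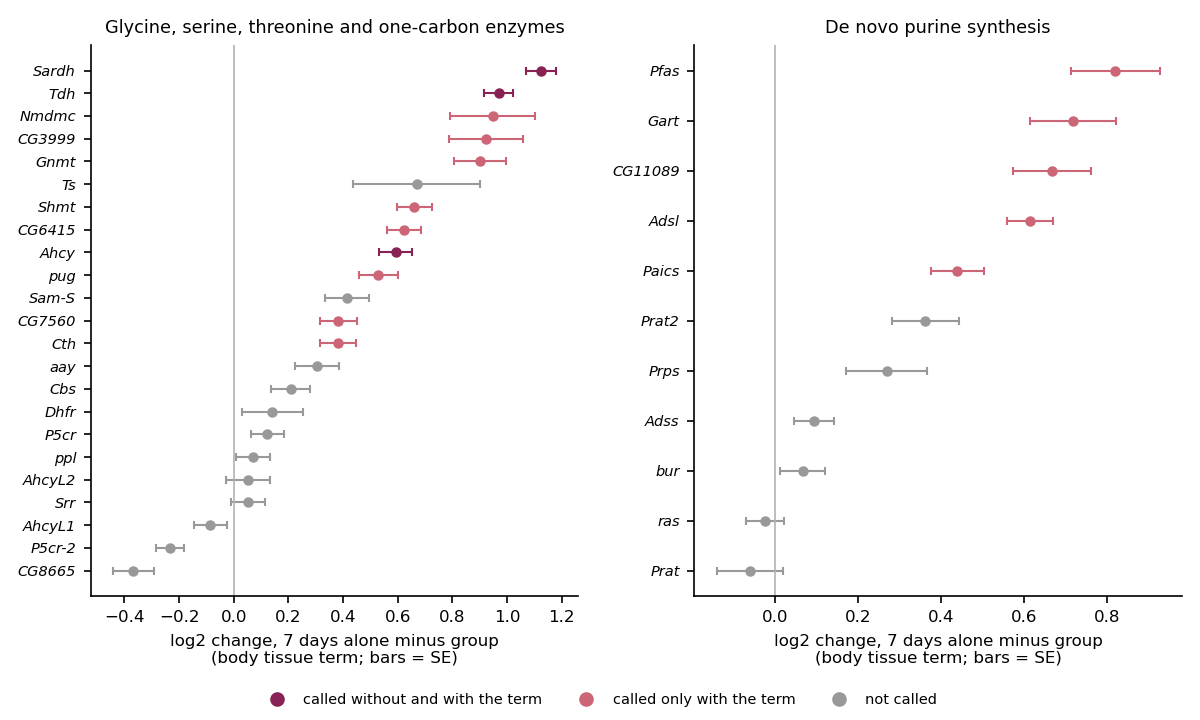
Log2 change of 7 days alone against group in the fit with the body tissue term (x axis, bars are SE) for the 23 tested genes of glycine, serine, threonine and one-carbon metabolism (left) and the 11 of purine synthesis (right), coloured by call. Estimates run from -0.37 for CG8665 to 1.12 for Sardh on the left and from -0.06 for Prat to 0.82 for Pfas on the right.

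Of 25 genes of amino acid and pyrimidine breakdown tested, 3 rose and 0 fell, or 6 and 0 with the term, and the median log2 change was 0.14. For 10 of the 25 the isolation libraries lay wholly higher and for 1 wholly lower, against 7.0% and 8.45% of all genes tested. Tdh and Sardh, described among the one-carbon enzymes, were 2 of the 3. The third, su(r), the dihydropyrimidine dehydrogenase gene, went from 71.4, 71.6 and 75.9 CPM to 108, 127 and 125 CPM (log2 0.72, SE 0.0748, adjusted p = 0.0127). CG3902, an acyl-CoA dehydrogenase gene, rose with the term (log2 0.40, adjusted p = 0.0124), as did Oat, the ornithine aminotransferase gene (0.47, adjusted p = 0.0186) and Mccc1 of leucine breakdown (0.45, adjusted p = 0.042). Phenylalanine and tyrosine breakdown was not called, with log2 changes of 0.20 for Hn, 0.08 for Hpd and -0.02 for hgo in the fit with the term.

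The following called enzyme genes are in none of the lists and were grouped here after their values were seen. Bcat, the branched-chain aminotransferase gene, went from 88.3, 85.7 and 93.2 to 129, 151 and 138 CPM (log2 0.64, adjusted p = 0.0158). CG15093, a 3-hydroxyisobutyrate dehydrogenase gene of valine breakdown, went from 107, 101 and 109.7 to 149.6, 171 and 157 CPM (log2 0.59, adjusted p = 0.00986). D2hgdh, which oxidises D-2-hydroxyglutarate, went from 342, 358 and 376 to 483, 541 and 523 CPM (log2 0.52, adjusted p = 0.0414). AsnS, the asparagine synthetase gene, was at 96.8, 91.8 and 109.9 and 142, 192 and 152 CPM (log2 0.78, SE 0.0778, adjusted p = 0.00235 with the term), and Agxt, the alanine-glyoxylate aminotransferase gene, at 148, 145 and 157 and 186, 219 and 192 CPM (log2 0.45, adjusted p = 0.00444 with the term).

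Of 47 carbohydrate genes tested, 2 rose and 0 fell, or 5 and 0 with the term, with a median log2 change of 0.15. Libraries of 15 lay wholly higher and of 1 wholly lower, against 7.0% and 8.45% of all genes tested. Of the 47, 11 differed with body tissue, 7 of them Mal-A maltase genes. The alpha-glucosidase gene tobi (FBgn0261575, chromosome 3R, 25344761 to 25346921), a target of insulin and adipokinetic hormone signalling in the fat body, was at 130.0, 144 and 129 CPM in the group and 229, 248 and 235 CPM alone. It kept its call in all 6 fits with 1 library left out (log2 0.82, SE 0.0631, adjusted p = 0.00669; highest 0.0498). Its exons overlap rha on the other strand. Mpc1, a subunit of the carrier that brings pyruvate into mitochondria, was at 136, 137 and 132 and 165, 168 and 172 CPM, a small shift against a very small spread (log2 0.32, SE 0.0302, adjusted p = 0.00986). With 1 library left out, Mpc1 was called in 0 of 6 fits, both without and with the term. With the term fbp of gluconeogenesis (log2 0.40, adjusted p = 0.00585), the hexokinase gene Hex-C (0.36, adjusted p = 0.047) and Pgi (0.25, adjusted p = 0.0473) rose. In fits with the term and 1 library left out, fbp was called in 2 of 6 and Hex-C in 0. Sodh1, a sorbitol dehydrogenase gene, was at 335, 298 and 324 and 440.2, 511 and 452 CPM (log2 0.61, SE 0.0474, adjusted p = 0.000758 with the term). The glycolytic genes Pfk (0.04), PyK (0.01) and Gapdh1 (0.19) were not called.

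Lipid genes changed in both directions. Jabba (FBgn0259682, chromosome 2R, 18757074 to 18761082), a protein that holds histones on lipid droplets, was at 239, 232 and 261 CPM in the group and 136, 141 and 146 CPM alone, with no overlap (log2 -0.79, SE 0.0782, adjusted p = 0.0119). It overlaps Cyp12b2 on the other strand. Of 24 genes of fatty acid synthesis and lipid storage Jabba was the only one to fall, and with the term 3 rose: mino, for the glycerol phosphate acyltransferase of the first step to triglyceride (log2 0.54, adjusted p = 0.0257), Mtp, which loads lipid on lipoproteins (0.39, adjusted p = 0.0234), and Agpat4 (0.63, adjusted p = 0.0357). The synthase gene FASN1 and the carboxylase gene ACC had log2 differences of 0.01 and 0.18 with the term, not called. Fatty acid oxidation and lipolysis were represented by 21 genes, of which none was called without the term and 2 rose with it, the triglyceride lipase gene bmm and the thiolase gene yip2. For 8 of the 21 the isolation libraries lay wholly higher and for 0 wholly lower, against 7.0% and 8.45% of all genes tested. For bmm the levels were 149, 146 and 151 CPM in the group and 167, 220.3 and 183 CPM alone, so that replicate 2 stood apart from the other isolation libraries (log2 0.40, adjusted p = 0.0397; 0.336 without the term). AkhR, the receptor of the fat-mobilising adipokinetic hormone, was lower, at 101, 92.8 and 102 CPM in the group and 71, 76 and 73.4 CPM alone (log2 -0.39, SE 0.0651, adjusted p = 0.03 with the term; 0.093 without). In fits with the term and 1 library left out, Agpat4 was called in 2 of 6 and yip2 in 0. The genes mino, Mtp, bmm and AkhR were each called in 1 of 6, and Jabba in 6. Without the term, Jabba was called in 2 of 6 and mino, Mtp, Agpat4, bmm, yip2 and AkhR in 0. In the fasting and FOXO list of 26 genes, tobi rose without the term, tobi and bmm rose and AkhR fell with it, and Thor, a FOXO target that restrains translation, was at 219, 204 and 206 and 193, 161 and 177 CPM (log2 -0.25, adjusted p = 0.696). The storage protein gene Lsp2 was at 1311, 1009 and 1186 CPM in the group and 2098, 2452 and 2071 CPM alone (log2 1.00, SE 0.0901, adjusted p = 0.00163 with the term; 0.0527 without). The sum of fat body markers ran from 17400 to 19300 CPM in the group and from 17700 to 21500 alone, with 2 of 18 tested markers, fit and Lsp2, called higher with the term and 1, Jabba, lower; the part of fat body content in these changes was not tested.

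Turandot genes, which encode small blood proteins induced by heat, infection and other stress, were lower after isolation. All 5 tested had negative estimates and 3 isolation libraries wholly below the group, with 2 called without and 4 with the term, and the median log2 change was -1.05. Of all genes tested, 8.45% had libraries wholly lower. TotC was at 1999.9, 1670.0 and 1757 CPM in the group and 756, 741 and 1007 CPM alone, with replicate 3 the highest of the isolation libraries (log2 -1.12, SE 0.135, adjusted p = 0.0269). TotX was at 690.3, 577 and 594 and 279, 289 and 332 CPM (log2 -1.05, SE 0.0992, adjusted p = 0.00986). TotA, the most abundant, was at 4628, 4029 and 4043 and 1974, 1915 and 2614 CPM (log2 -0.95, adjusted p = 0.0175 with the term), and TotM at 448, 342 and 442 and 84, 154 and 164 CPM (log2 -1.56, adjusted p = 0.0175 with the term). TotB, at 1.98 ± 0.446 and 1.14 ± 0.269 CPM, was not called. Turandot genes are similar in sequence, and TotA and TotC lie 1288 bases apart on chromosome 3R, so reads could be shared among them. Of 13 genes of the JAK-STAT pathway only Diedel was called, lower with the term, at 31.7, 23.4 and 33.9 CPM in the group and 7.71, 14.1 and 11.1 CPM alone (log2 -1.33, adjusted p = 0.0244). For 6 of the 13 the isolation libraries lay wholly lower and for 0 wholly higher, against 8.45% and 7.0% of all genes tested. The factor gene Stat92E was at 395 ± 25.9 and 324 ± 24.7 CPM (log2 -0.29, adjusted p = 0.444).

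Antimicrobial peptide and bomanin genes were not called in either fit. Of 33 tested, 28 had a negative estimate with a median log2 change of -0.33 (-0.25 with the term), and 12 of the 33 differed with body tissue. Libraries of 1 lay wholly higher and of 11 wholly lower, against 7.0% and 8.45% of all genes tested. Levels of these peptide genes varied within the groups, as for DptA at 41.7 ± 23.1 CPM in the group and 10.5 ± 7.73 alone (log2 -1.99, adjusted p = 0.741) and Drs at 26.7 ± 10.8 and 18.7 ± 3.11 CPM (log2 -0.52, adjusted p = 0.88; mean ± SD, n = 3).

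None of 37 phototransduction genes was called, yet all 37 had a negative estimate, between -0.36 and -0.00, with a median log2 change of -0.12 (-0.10 with the term), and libraries of 20 lay wholly lower and of 0 wholly higher, against 8.45% and 7.0% of all genes. The photoreceptor marker sum was lower too, at 83500 to 85200 CPM in the group and 72000 to 81400 CPM alone, and all 18 neuron markers had negative estimates (median -0.08) with none called. Long genes had lower estimates than short ones across all genes tested (Spearman rho of change with length -0.27 over 12963 genes, -0.10 over the genes without a body tissue difference), a description across genes of the same libraries; its part in these shifts was not tested. Of 34 odorant-binding and antennal protein genes, only Obp99b was called, lower with the term, at 486, 517 and 472 CPM in the group and 293, 342 and 365 CPM alone (log2 -0.55, SE 0.089, adjusted p = 0.0247). Libraries of 13 of the 34 lay wholly lower and of 3 wholly higher, against 8.45% and 7.0% of all genes. Among the 34, lush, an antennal pheromone-binding protein gene, was at 3.95 ± 0.496 and 2.31 ± 0.177 CPM (log2 -0.77, adjusted p = 0.15). Arc1, an activity-regulated gene whose protein forms capsids that carry RNA between cells, was the only 1 of 16 activity-regulated genes called. It fell with the term from 812, 835 and 717 CPM in the group to 326, 386 and 514 CPM alone, with a wide spread among the isolation libraries (log2 -0.96, SE 0.154, adjusted p = 0.0239). Hr38, a neuronal activity reporter, was at 8.68 ± 0.449 CPM in the group and 9.42 ± 0.933 alone (mean ± SD, n = 3), with overlapping libraries (log2 0.12, adjusted p = 0.947).

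Clock and sleep genes were not called. The median log2 change was -0.03 over 24 clock genes and -0.08 over 33 sleep regulators. The clock gene per was at 35.3, 33.3 and 34 CPM in the group and 33.1, 33.6 and 30.5 CPM alone (log2 -0.08, adjusted p = 0.88) and tim at 164, 162 and 171 and 174, 159 and 163 CPM (adjusted p = 0.993), both with overlapping ranges. In the list of lipases and secreted fat body proteins, 3 of 27 rose without the term and 4 with it, all described already (Cyp4d21, fit, tobi and Lsp2). None of 22 transcription factor genes of metabolism (median -0.01) or 6 long noncoding RNAs (median -0.15) was called. None of 75 ribosomal protein genes (median -0.02), 59 oxidative phosphorylation genes (median 0.04), 24 heat shock genes (median 0.02) or 38 cuticle and lens protein genes (median -0.01) was called either. Wholly higher and wholly lower isolation libraries were seen for 2 and 14 ribosomal genes, against 7.0% and 8.45% of all genes tested. The counts were 6 and 0 for oxidative phosphorylation, 6 and 0 for heat shock and 4 and 3 for cuticle and lens genes.

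**Figure D4:**
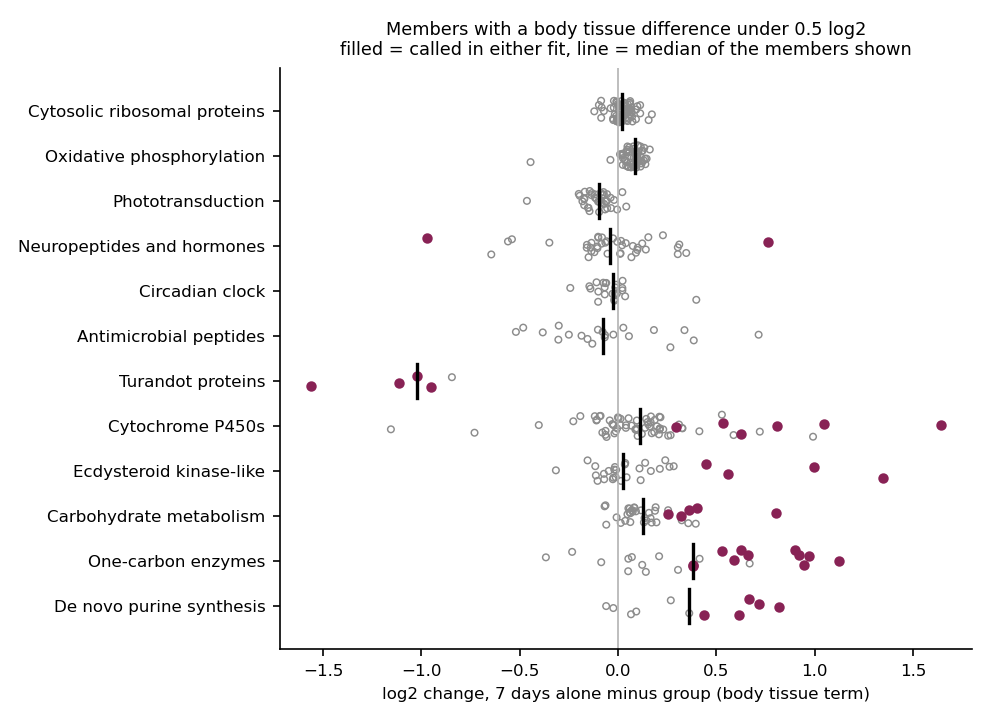
Log2 change of 7 days alone against group in the fit with the body tissue term (x axis) for members of 12 gene lists (y axis) whose body tissue difference was under 0.5 log2; filled points were called in either fit and lines mark medians of the members shown. Turandot genes lie wholly left of 0 and all called points of the P450, ecdysteroid kinase-like, one-carbon and purine lists lie right of 0, whereas no ribosomal, oxidative phosphorylation, clock, phototransduction or antimicrobial gene was called.

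Several called genes belong to none of these lists. The gene atk, or artichoke (FBgn0036995, chromosome 3L, 20454690 to 20464862), encodes an extracellular matrix protein with leucine-rich repeats that sense organs need. It was at 31.5, 29 and 36 CPM in the group and 86.8, 98.7 and 89.5 CPM alone. The isolation libraries lay close together at nearly 3 times the group's level (log2 1.51, SE 0.092, adjusted p = 0.00492; highest 0.0456 with 1 library left out). Its exons overlap those of Uhg8 (opposite strand) and CG42764 (same strand), and it ends 2082 bases from Tdh, which rose too. Further genes that rose without the term were Irp-1B, an iron regulatory protein gene (208, 202 and 219 CPM in the group and 298, 357 and 355 CPM alone; log2 0.68, adjusted p = 0.0202), and MFS9, a transporter gene (82.9, 80.5 and 83.3 and 109, 123 and 112 CPM; log2 0.48, adjusted p = 0.0127). CG9119 went from 54.8, 54.1 and 50.1 to 90.9, 107 and 97.5 CPM (log2 0.89, adjusted p = 0.0127). CG32444 went from 77.3, 95.5 and 70.1 to 144, 152 and 158 CPM, with the group's replicate 2 above its 2 partners (log2 0.90, adjusted p = 0.0448). The rest of the 32 were CG3984 (log2 0.89), CG15199 (0.74), CG18547 (0.59), CG2065 (0.59), CG10512 (0.30) and the proteasome gene Rpn2 (0.21). Of the 7 that fell, those not yet described were CG9664, an ABC transporter gene (56.4, 53.1 and 54.7 and 34.8, 39.7 and 37.8 CPM; log2 -0.55, adjusted p = 0.0127), and CG10175 (log2 -0.31, adjusted p = 0.0418). The further genes named among those called only with the term all rose except CG16978 (log2 -0.54): CG10621 (1.01), CG10184 (0.83), CG3699 (0.78), CG9547 (0.76), Fmo-2 (0.66), CG4408 (0.63), CG9436 (0.56) and Aldh7A1 (0.45). CG10621 had 132, 130.1 and 137 CPM in the group and 215, 309 and 240.3 CPM alone, with replicate 2 the highest isolation library (adjusted p = 0.00128).

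By position, 15 of 3201 genes tested on chromosome arm 3R were called without the term (0.469%), 10 of 2632 on 2R (0.38%), 6 of 2489 on 3L (0.241%), 5 of 2043 on X (0.245%), 3 of 2464 on 2L (0.122%) and 0 of 101 on chromosome 4. Called genes within 20000 bases of each other formed 10 neighbouring pairs over both fits, and in 9 of these both moved the same way. The exception was Jabba, which fell, and CG15093, which rose, 14587 bases apart. Of the 142 genes called with the term 121 rose, so pairs that move the same way are common. Some pairs are also similar genes that could share reads. The count of pairs is therefore not read as a result about position.

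Levels after 1 day alone stood beside those after 7 days against the same 3 group libraries, so the comparisons share their control and no overlap between them is given as a result. Lst was at 82.1, 82.3 and 92.2 CPM after 1 day (log2 0.17, adjusted p = 0.168) beside 0.75 after 7 days. Dsk was at 55.8, 58.4 and 79.3 CPM (log2 -0.34, adjusted p = 0.211) beside -1.02, with 1-day replicate 3 at the level of the group. The fit gene was at 90.6, 56.4 and 65.7 CPM (log2 1.79, adjusted p = 0.00332) beside 1.52, and Jhe had a log2 change of 1.25 beside 1.31. Among metabolic genes tobi was at 103, 96.7 and 90.2 CPM after 1 day, below the group (log2 -0.48, adjusted p = 0.00873) where it was above it after 7 days (0.82). Sardh was at -0.05 after 1 day and 1.06 after 7, Shmt at -0.37 and 0.59, and Gart at -0.66 and 0.66 (log2, no term). The Turandot gene TotC was at 172, 192 and 192 CPM after 1 day (log2 -3.28, adjusted p = 0.000486), lower than after 7 days alone (-1.12). Jabba was at -0.73 and -0.79. Replicate 1 of the 1-day group carried more yolk protein RNA than any other library (Yp1 at 417 CPM against 2.88 to 21.5 CPM in the other 8 libraries), and leaving it out gave 47 calls for 7 days alone in place of 39.

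**Figure D5:**
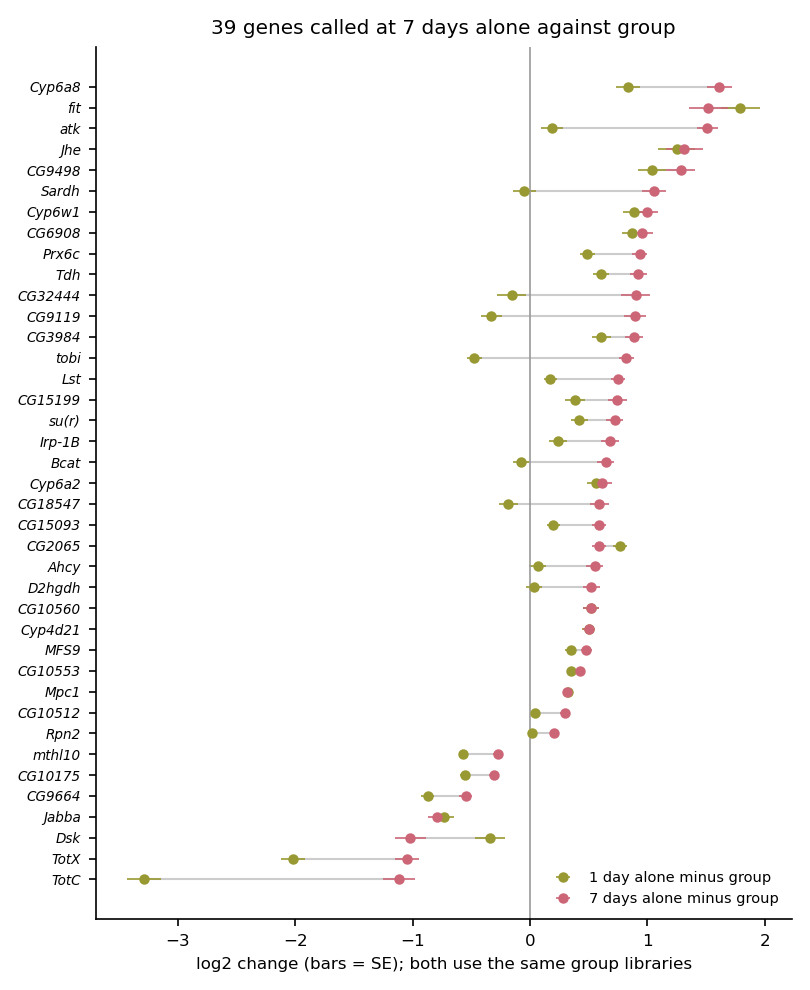
Log2 change against group (x axis, bars are SE) after 7 days and after 1 day alone for the 39 genes called at 7 days without the term (y axis), both from the same 3 group libraries. Values at both times lie close for fit and Jhe, and apart for atk, Sardh, tobi and CG9119, while TotC and TotX lie further below 0 after 1 day.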

How the data were processed

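The authors deposited raw counts per gene for 9 libraries of pooled Drosophila heads, with a gene length column. Libraries were made with an Illumina TruSeq stranded mRNA kit, per the labels' protocols. The submitters' processing notes name bcl2fastq 2.20, STAR 2.4.2a and featureCounts, and the genome build, annotation, strand setting and treatment of reads with several matches were not given in the sources used here. Where genes overlap on opposite strands, their reads are therefore reported as uncertain.

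Gene symbols came from a table of gene names and an Ensembl annotation of BDGP6, in which 17288 of the 17490 gene IDs had a symbol and 17144 the same span as in the deposited table. Positions given are those of the deposited counts. Counts were tested with edgeR 4.0.16 (R 4.3.3) by its quasi-likelihood test on all 9 libraries, with filterByExpr, TMM factors and Benjamini-Hochberg adjustment over the 12963 genes that passed. The group was the only term, and a parallel fit added the presence of body tissue, defined as a summed level of gut and male tract markers over 50 CPM. The fits were tested on a single run of simulated data, where the fit with the term made more false calls than its threshold allows. The alternatives were another normalization (RLE, upper quartile), other filters, DESeq2 1.42.0, limma-voom (limma 3.58.1), a replicate block, subsets of libraries and each library left out.

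Members and lists were chosen with earlier results of these data known. Marker lists lost genes that heads also express after their library values were seen, and the body tissue term rests on these trimmed lists, whose sums were 4.62 to 9.23 CPM in 4 libraries and 1130.0 to 2540.0 CPM in 5. The genes named were all those called without the term, the 20 with the lowest p among those called only with it (at least 5 CPM, no overlap), up to 4 called members of each list, and, whatever their values, the clock genes per and tim, the hormone genes Dsk and Lst, and fit, to, Thor, Hr38, Cyp6a20 and Obp69a. Of the named genes 1 is not reported here. Other members of lists, and other genes given as examples, were chosen after their values were seen.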

Additional observations from a re-analysis of the deposited data

Results flagged for a closer look

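The change against the group differed between 7 days and 1 day alone for 56 of the 85 named genes, by a test of 7 days against 1 day directly in the edgeR fit without the term (Benjamini-Hochberg adjusted p under 0.05). The values are the log2 change after 7 days minus that after 1 day. Body tissue RNA was present in replicates 1 and 2 of 1 day alone, and replicate 1 also held yolk protein RNA; the part of either in these differences was not tested.

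Genes above the group after 7 days, and further up than after 1 day, were Mdr50 (1.87), Cyp309a1 (1.34), atk (1.32), tobi (1.30), CG9119 (1.22), CG3699 (1.21), CG11089 (1.15), Sardh (1.11), CG32444 (1.06), bmm (0.99), CG10621 (0.96) and CG10184 (0.96). The same direction, with differences no larger, was seen for Shmt (0.96), CG9547 (0.95), mino (0.95), Sodh1 (0.92), Agxt (0.85), Adsl (0.84), Pfas (0.82), Cyp6a8 (0.78), CG18547 (0.78), Bcat (0.72), Paics (0.71) and Prx6b (0.68). It was also seen for Lsp2 (0.65), CG4408 (0.64), Lst (0.57), Fmo-2 (0.55), fbp (0.52), D2hgdh (0.49), Ahcy (0.48), yip2 (0.48), Mtp (0.47), Irp-1B (0.45), Prx6c (0.45), Aldh7A1 (0.43), Hex-C (0.40), CG15093 (0.39), CG3902 (0.36), CG10512 (0.26) and Rpn2 (0.19).

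Genes at or below the group after 7 days and lower still after 1 day were Diedel (2.63), TotM (2.62), TotC (2.17), TotA (1.87), TotX (0.97), Obp99b (0.70), tim (0.35), CG9664 (0.32), mthl10 (0.29) and CG10175 (0.24). The genes with a lower value after 7 days than after 1 day were per (-0.24), Thor (-0.51), CG16978 (-0.66) and Dsk (-0.68).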

How the results depend on the processing

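Without the term 39 genes were called, against 61 with a filter of 1 CPM in 3 libraries, 330 with DESeq2, 64 from only the 6 libraries, 183 with genes differing by body tissue left out, 827 within libraries without body tissue and 5 within libraries with it. With 1 library left out it was 3 to 31, or 34 to 204 with the term added (81 without group replicate 2, 68 without group replicate 3, 93 without isolation replicate 3). With the term 142 were called, and 34 to 204 with 1 library left out. Settings chosen after seeing the data gave 47 without the term when replicate 1 of 1 day alone was left out, 346 for DESeq2 with the term, 188 with the amount of body tissue as the term and, with a gene length offset, 86 without and 275 with the term. The fits within a kind of library have 1 library on 1 side, assumed to vary like the others. The cause of these differences was not tested. Other normalizations, no filter and voom stayed within 1.5 times of both counts.

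With the replicate number as a block 0 genes were called by edgeR without the term, with 637 at an unadjusted p under 0.05 and a lowest adjusted p of 0.0725, and 76 with the term. Deviations of same-numbered libraries correlated at -0.23 to 0.04, so the numbers were not taken to pair the samples.

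Of the values of 85 named genes under the alternatives, 1608 kept direction and call, 421 gained the call, 340 lost it and 11 changed sign, in Hr38 and tim only, neither called. Hr38 (log2 0.12) came to -0.019 with term and block, -0.00203 with the amount term, and, with the term, -0.30 without group replicate 2 and -0.38 without isolation replicate 2. The gene tim (log2 -0.00) came to 0.00409 with the filter of 1 CPM, 0.00524 from 6 libraries, 0.021 with body tissue genes left out, 0.032 within libraries with body tissue, 0.026 with the length offset, -0.0776 to 0.00579 with 1 library left out and no term, and 0.00269 with the term without isolation replicate 2.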
